A study of Mus musculus with 18 samples.

Results

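The mRNAs of 10 genes of the epidermal growth factor (EGF) system, 7 ligands (Areg, Ereg, Hbegf, Tgfa, Btc, Epgn and Nrg1) and 3 receptors (Egfr, Erbb2 and Erbb3), were examined in mouse cancer cells grown with or without fibroblasts. The genes were chosen by symbol, with earlier results of these data known, and all 10 were present among the 24455 genes of the 168FARN table and the 24532 genes of the LLC1 table. Cancer cells carrying GFP were grown as hanging-drop spheroids, alone or with 3 fibroblasts per cancer cell, and sorted before RNA sequencing. 168FARN, a breast cancer line, was cocultured with cancer-associated fibroblasts of MMTV-PyMT mammary tumours (MMTV-CAFs), and LLC1, a Lewis lung carcinoma line, with wound healing fibroblasts of day 10 after wounding. WT fibroblasts had received the control guide SgNS, and in sgPrrx1 fibroblasts the transcription factor gene Prrx1 was deleted by CRISPR/Cas9. The cancer cells themselves were not edited at Prrx1, so its level in them does not check the labels, and each line had 3 libraries of each of 3 groups (alone, WT and sgPrrx1). Line, kind of fibroblast and count table change together, so their parts in a difference between the lines cannot be told apart. Nothing states that the replicates were separate cultures, so the p-values measure the spread between these libraries, which may be technical.

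EGF family ligands are made as membrane-anchored precursors that metalloproteases cut from the cell surface. Amphiregulin (Areg), TGF-alpha (Tgfa) and epigen (Epgn) bind EGFR, epiregulin (Ereg), HB-EGF (Hbegf) and betacellulin (Btc) bind EGFR and ErbB4, and neuregulin 1 (Nrg1) binds ErbB3 and ErbB4. Bound receptors pair, often with ErbB2, which has no known ligand of its own, and signal through the RAS, ERK and PI3K pathways, which in turn induce early transcription factors and feedback inhibitors.

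Total counts ran from 48315037 to 68933002 per library in 168FARN and from 66129117 to 103997557 in LLC1. Levels are given as CPM, counts relative to the TMM-scaled total of the library, and a gene with no count could be at up to 3 counts in a library, a limit of 0.0283 to 0.0626 CPM that covers counting error only. One library stood apart: LLC1 sgPrrx1 replicate 3 correlated with its replicates at 0.949 and 0.950, whereas those correlated with each other at 0.991, and counts of called genes within LLC1 are given with and without it. Most epithelial markers were at or near 0 in both lines. Of 9 epithelial and mammary markers, Elf5 and Krt5 were at 0 counts in every library, Cdh1 and Epcam had at most 8 counts in any library, and Krt8 was abundant in 168FARN (322.9 to 421.8 CPM) but at most 0.162 CPM in LLC1. Of 6 lung epithelial markers, Nkx2-1, Sftpc, Sftpa1 and Scgb1a1 were at 0 in every library, while Napsa was at 31.4 to 36.4 CPM in the breast line 168FARN and at 0.622 to 1.51 CPM in LLC1.

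Compared per transcript length, the same 4 genes led the family in both lines when grown alone. In 168FARN alone the order was Hbegf at 35.6 ± 0.692 CPM per kb (SD, n = 3), Areg at 26.6 ± 0.795, Ereg at 19.9 ± 0.412 and Erbb2 at 7.60 ± 0.198. In LLC1 alone Areg came first at 83.8 ± 1.38 CPM per kb, followed by Hbegf at 28.6 ± 0.623, Ereg at 17.5 ± 1.42 and Erbb2 at 5.16 ± 0.0880. The ranges of these neighbours did not overlap in either line. Below them came Nrg1, Erbb3 and Btc in 168FARN (the last 2 overlapping), and Btc, Tgfa, Erbb3, Nrg1 and Egfr in LLC1. Erbb2 was thus the most abundant receptor mRNA of the 3 in both lines, and in 168FARN alone Egfr and Tgfa had no count at all.

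The sum over the 7 ligands per transcript length was 83.9 to 84.5 CPM per kb in 168FARN alone, 167.9 to 176.4 in WT coculture and 177.0 to 179.3 with sgPrrx1 fibroblasts. In LLC1 it was 133.9 to 136.0 alone, 189.0 to 215.8 in WT coculture and 162.7 to 179.8 in sgPrrx1 coculture. All coculture libraries of both lines therefore held more ligand mRNA than the libraries of cells alone. Its make-up differed: Areg was 30.7 to 38.8% of it over the 168FARN libraries and 61.1 to 77.7% over the LLC1 libraries, the highest being LLC1 sgPrrx1 replicate 3.

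**Figure D1:**
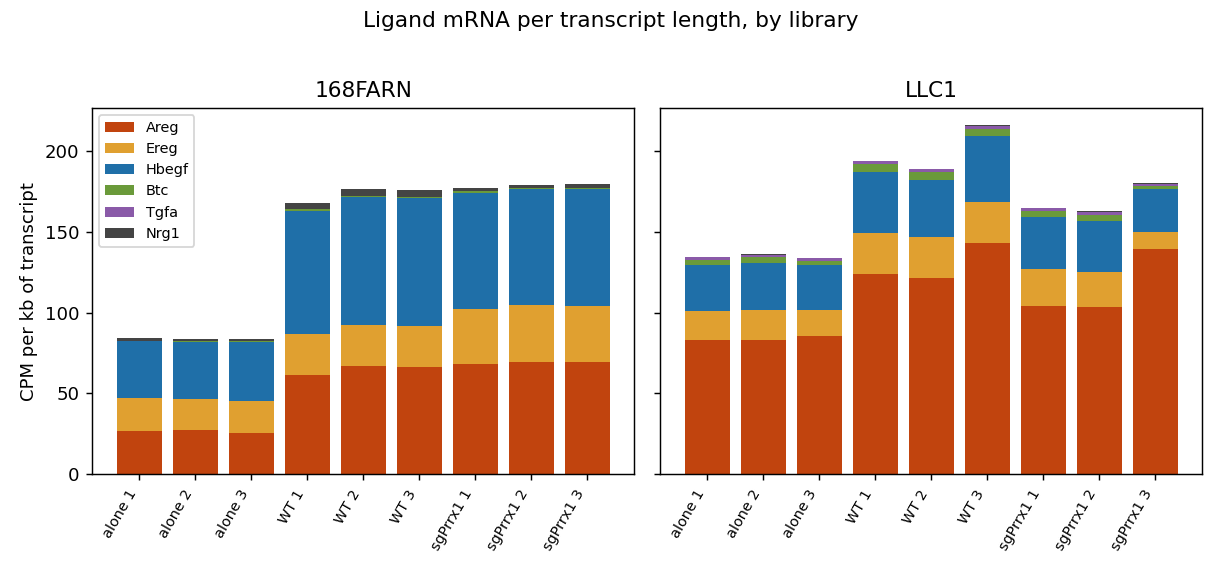
Stacked bars show CPM per kb of transcript for 6 ligands in each library (Epgn, at or near 0, is not drawn), with 168FARN on the left and LLC1 on the right and both vertical axes starting at 0. In 168FARN the sum is 83.9 to 84.5 alone and at least 167.9 in every coculture library, and Areg fills most of each LLC1 bar.

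The ligand genes Epgn, Ereg, Areg and Btc lie next to one another on chromosome 5 (GRCm38.p6, 91027517 to 91402994, a span of 375 kb), in that order. Intervals between them were 39.4 kb, 46.0 kb and 209 kb. Their levels did not go together: Epgn had at most 10 counts in any of the 18 libraries, while its neighbours Ereg and Areg were among the most abundant family members. The RefSeq windows from 250 bases before to 50 bases after the start are shown for the abundant Areg (chr5:91139349-91139648, plus strand), for Btc (chr5:91402945-91403244, minus strand), which rose with it in 168FARN, and for Epgn (chr5:91027267-91027566, plus strand), which stayed near 0. Capitals mark matches to any of 5 motifs, searched on both strands. The CRE was searched as TGACGTCA. The TATA box was searched as TATAAA. The GC box was searched as GGGCGG. The TEAD motif was searched as GGAATG, and AP-1 as TGANTCA.
Areg promoter: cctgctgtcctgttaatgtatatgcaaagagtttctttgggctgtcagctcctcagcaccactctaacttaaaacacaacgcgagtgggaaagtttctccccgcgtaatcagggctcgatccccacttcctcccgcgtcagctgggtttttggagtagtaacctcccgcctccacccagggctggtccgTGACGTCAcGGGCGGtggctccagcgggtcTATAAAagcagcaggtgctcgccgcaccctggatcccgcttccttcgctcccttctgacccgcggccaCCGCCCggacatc
Btc promoter: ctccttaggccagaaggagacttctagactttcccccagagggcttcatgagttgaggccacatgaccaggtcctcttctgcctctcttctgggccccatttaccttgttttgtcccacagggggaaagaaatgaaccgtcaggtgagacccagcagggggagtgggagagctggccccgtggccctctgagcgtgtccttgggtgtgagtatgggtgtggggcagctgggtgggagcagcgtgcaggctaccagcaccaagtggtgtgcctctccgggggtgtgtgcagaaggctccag
Epgn promoter: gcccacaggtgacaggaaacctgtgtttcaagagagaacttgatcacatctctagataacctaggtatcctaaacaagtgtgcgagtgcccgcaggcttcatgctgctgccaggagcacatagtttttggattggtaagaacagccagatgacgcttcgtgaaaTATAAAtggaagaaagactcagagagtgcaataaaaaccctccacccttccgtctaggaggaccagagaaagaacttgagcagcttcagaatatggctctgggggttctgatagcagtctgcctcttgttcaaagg
The Areg window held a CRE 61 bases before the start, a GC box 52 bases before it, a TATA box 31 bases before it and a second GC box 38 bases after it, on the other strand. Btc held none of the 5, and Epgn held a TATA box 86 bases before the start. Of 27025 mouse promoter windows of the same length, 1.88% held the CRE letters, 14.16% the TATA box, 35.91% the GC box, 14.63% the TEAD letters and 7.93% the AP-1 letters. Matches describe these windows and were not tested as sites. Promoter windows of Ereg, Nrg1, Hbegf and Erbb3 are not shown here.

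Coculture of 168FARN with WT MMTV-CAFs raised 6 members (Areg, Ereg, Hbegf, Btc, Nrg1 and Erbb2) of the 7 with counts in every group, and none fell. Across the 13540 genes tested, 33.4% were higher and 30.7% lower, so a call in this comparison was common. Tgfa and Epgn did not pass the low-count filter, and Egfr, at 0 counts in cells alone, passed it only through the group in which it was high, so it is described below without a test and is in none of these counts. With sgPrrx1 MMTV-CAFs, 5 members rose against cells alone (Areg, Ereg, Hbegf, Btc and Nrg1) and none fell, where 25.7% of genes were higher and 24.1% lower. Between sgPrrx1 and WT coculture 1 member was higher (Ereg) and 4 were lower (Hbegf, Nrg1, Erbb2 and Erbb3), where 26.9% of genes were higher and 33.1% lower. Calls are from edgeR's quasi-likelihood test at an adjusted p under 0.05, two-sided. The 3 comparisons of a line share their libraries and are not independent.

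Areg rose to about the same level with either kind of fibroblast in 168FARN. In libraries 1 to 3 its levels were 32.1, 32.8 and 30.9 CPM alone, 74.0, 80.5 and 79.8 CPM with WT fibroblasts, and 81.5, 82.9 and 83.3 CPM with sgPrrx1 fibroblasts. Every coculture library lay above every library of cells alone, and the log2 fold change was 1.29 (SE 0.0384, adjusted p = 4.55e-10 in edgeR) with WT and 1.37 (SE 0.0384, adjusted p = 4.65e-10) with sgPrrx1 fibroblasts. Between the cocultures the log2 difference in Areg was 0.08, with an unadjusted 95% interval of 0.01 to 0.15 and an adjusted p of 0.0812, and the adjusted p ranged from 0.0237 to 0.502 over the alternative analyses (3 of 17 called it, among them the one without WT replicate 2).

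Ereg, which neighbours Areg, was the member called higher with sgPrrx1 than with WT fibroblasts. Its levels were 84.1, 80.7 and 82.2 CPM alone, 104.8, 103.3 and 104.1 CPM with WT fibroblasts and 142.8, 146.5 and 143.8 CPM with sgPrrx1 fibroblasts. The 3 groups did not overlap. Its log2 fold change was 0.34 (SE 0.0272, adjusted p = 9.90e-07 in edgeR) from alone to WT, 0.81 (SE 0.0273, adjusted p = 1.72e-09) from alone to sgPrrx1 and 0.47 (SE 0.0271, adjusted p = 1.19e-07) from WT to sgPrrx1. Within a library, the ratio of Areg to Ereg per transcript length was 1.30 to 1.40 alone, 2.44 to 2.69 in WT coculture and 1.97 ± 0.0233 (mean and SD, n = 3) in sgPrrx1 coculture, and this ratio does not depend on how libraries are scaled.

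Btc was far lower, and its log2 fold changes were the largest values among the 5 ligands tested, though they were not tested against those of the other ligands. Its counts were 23, 37 and 35 alone (0.473 to 0.721 CPM), 165, 141 and 90 in WT coculture (1.83 to 2.34 CPM) and 109, 120 and 135 in sgPrrx1 coculture (2.01 to 2.29 CPM). The log2 fold change was 1.82 (SE 0.194, adjusted p = 9.79e-06 in edgeR) with WT and 1.89 (SE 0.195, adjusted p = 1.48e-05) with sgPrrx1 fibroblasts. Both cocultures lay above cells alone and overlapped each other, with a log2 difference of 0.07 and a 95% interval of -0.26 to 0.40.

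Hbegf, the most abundant ligand per length in every 168FARN group, was at 83.7, 83.3 and 86.3 CPM alone. It reached 180.4, 188.6 and 188.2 CPM with WT fibroblasts and 169.7, 170.0 and 170.8 CPM with sgPrrx1 fibroblasts. The log2 fold changes were 1.14 (SE 0.0301, adjusted p = 1.83e-10 in edgeR) with WT and 1.01 (SE 0.0300, adjusted p = 6.92e-10) with sgPrrx1 fibroblasts. The level with sgPrrx1 fibroblasts was slightly lower than with WT fibroblasts, by -0.13 on the log2 scale (SE 0.0296, adjusted p = 0.00341), and the ranges did not overlap. Over the 9 libraries, the 3 genes whose log2 levels correlated most highly with Hbegf were Dcn, Rgs16 and Cldn6 (Pearson r = 0.998 for each, among 10875 genes). This is a description over libraries that share groups. Pearson's r does not compare sizes of change, and Dcn averaged 0.275 CPM alone, 92.8 CPM with WT and 43.3 CPM with sgPrrx1 fibroblasts.

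Nrg1 (chromosome 8, 31807452 to 32891609) rose mainly with WT fibroblasts. Its levels were 4.07, 3.46 and 3.50 CPM alone, 8.38, 8.66 and 9.09 CPM with WT fibroblasts and 4.36, 4.31 and 4.74 CPM with sgPrrx1 fibroblasts. WT coculture lay apart from both other groups, with a log2 fold change of 1.25 against cells alone (SE 0.0898, adjusted p = 4.20e-07 in edgeR) and of -0.96 from WT to sgPrrx1 (SE 0.0878, adjusted p = 3.74e-06). The sgPrrx1 libraries still lay above cells alone, by 0.29 on the log2 scale (SE 0.0936, adjusted p = 0.0257), a call that held in 13 of 17 alternative analyses with adjusted p values from 0.0122 to 0.0893. It was lost without replicate 2 or 3 of the cells alone (log2 0.24 and 0.25, adjusted p = 0.0893 and 0.0837), without sgPrrx1 replicate 3 (log2 0.24, adjusted p = 0.0852) and with only the 2 groups compared in the fit (log2 0.28, adjusted p = 0.0559). Tgfa (chromosome 6, 86195038 to 86275744) had 0 counts in all 9 libraries of 168FARN, which allows at most 0.0626 CPM. Epgn had 0, 7 and 3 counts alone, 0 in each WT library and 4, 0 and 0 in sgPrrx1 coculture.

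**Figure D2:**
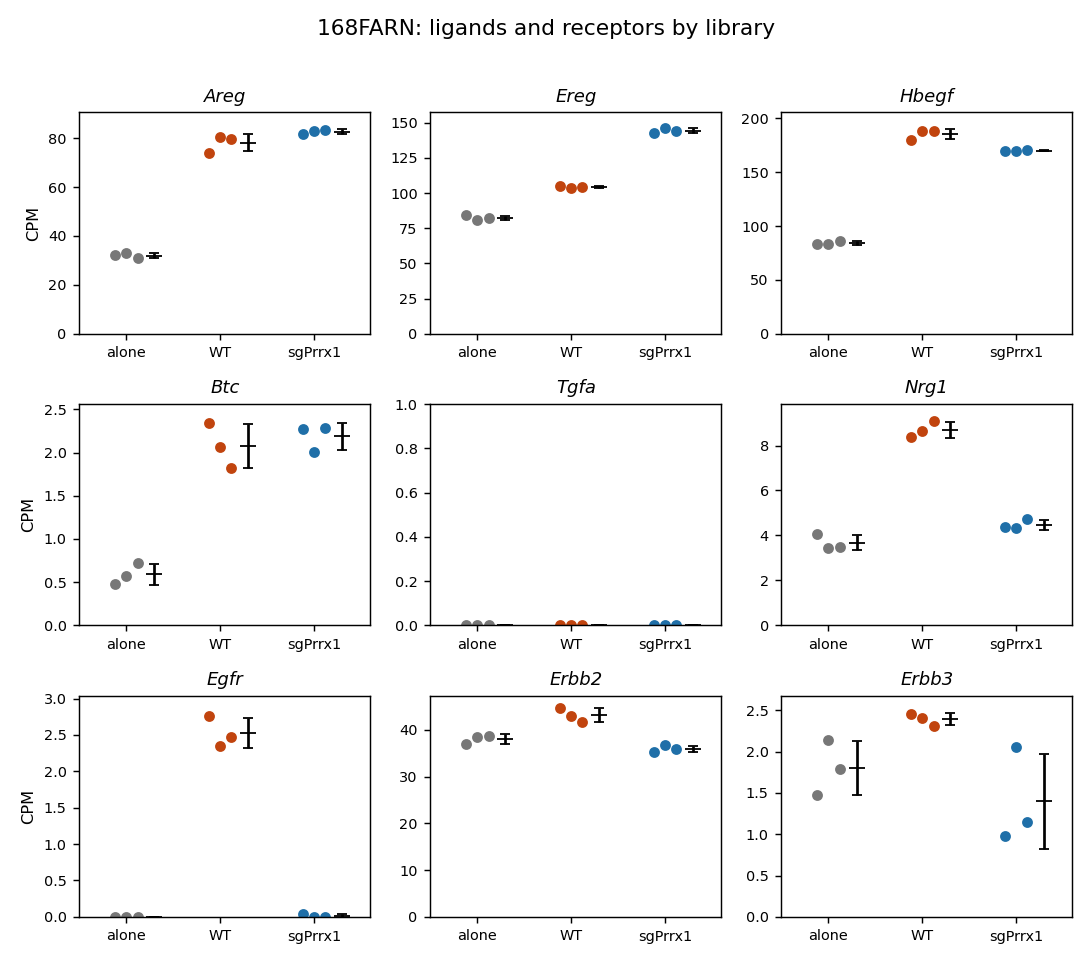
Each panel shows CPM (axis from 0) of 1 gene in the 9 libraries of 168FARN, as points in order of replicate, with the mean and SD as a bar beside them (n = 3). Areg and Hbegf are raised in both cocultures, Ereg is highest with sgPrrx1 fibroblasts, and Nrg1 and Egfr are raised in WT coculture, where Egfr lies between 2.35 and 2.76 CPM.

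Among the receptors of 168FARN, Egfr (chromosome 11, 16752203 to 16913907, plus strand) was above the limit of 3 counts only in the WT coculture libraries. It had 0 counts in each of the 3 libraries of cells alone, 194, 161 and 122 counts in WT coculture (2.76, 2.35 and 2.48 CPM) and 2, 0 and 0 counts in sgPrrx1 coculture. Against a limit of 3 counts per library, the WT level was at least 44.6-fold higher than in cells alone, and the ratio of WT to sgPrrx1 was 211.5, with a 95% interval of 58.2 to 1751 from the 2 counts, which covers counting error only and takes reads as independent molecules. No test is given for these, since the low-count filter kept Egfr through the WT group alone. Per transcript length this was still a low level, 0.248 ± 0.0203 CPM per kb against 8.61 ± 0.288 for Erbb2 in the same libraries. The window around the Egfr start (chr11:16751953-16752252, plus strand, RefSeq, GRCm38.p6) is shown because its mRNA went from no count to a measurable level, with capitals marking the same 5 motifs.
Egfr promoter: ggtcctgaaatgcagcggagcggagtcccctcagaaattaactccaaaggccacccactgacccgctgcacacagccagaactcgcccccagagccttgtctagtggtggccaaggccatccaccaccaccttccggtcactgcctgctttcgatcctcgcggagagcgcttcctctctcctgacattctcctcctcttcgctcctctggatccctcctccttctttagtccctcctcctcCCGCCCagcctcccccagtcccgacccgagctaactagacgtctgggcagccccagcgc
It held a single match, a GC box 9 bases before the start.

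Erbb2 (chromosome 11, 98412484 to 98437716) changed little. Its levels were 37.0, 38.6 and 38.7 CPM alone, 44.6, 43.1 and 41.8 CPM with WT fibroblasts and 35.4, 36.7 and 35.8 CPM with sgPrrx1 fibroblasts. WT coculture lay above both other groups, by 0.18 against cells alone (log2, SE 0.0339, adjusted p = 0.000693 in edgeR) and with a change of -0.26 from WT to sgPrrx1 (SE 0.0339, adjusted p = 5.25e-05). Erbb3 (chromosome 10, 128567523 to 128589635), whose kinase is impaired and which signals through its partner, was at 1.48, 2.13 and 1.79 CPM alone, 2.46, 2.41 and 2.31 CPM with WT fibroblasts and 0.980, 2.06 and 1.15 CPM with sgPrrx1 fibroblasts. The first comparison did not pass the threshold (log2 0.40, 95% interval -0.08 to 0.88, adjusted p = 0.173). The fall from WT to sgPrrx1 did (log2 -0.77, SE 0.250, adjusted p = 0.0206), but was lost without WT replicate 1 (log2 -0.75, adjusted p = 0.0558), sgPrrx1 replicate 1 (-0.58, 0.0743) or sgPrrx1 replicate 3 (-0.64, 0.0779). Against cells alone, sgPrrx1 coculture had a log2 difference in Erbb3 of -0.36 (adjusted p = 0.268), and without sgPrrx1 replicate 2 it was -0.76 (adjusted p = 0.0138).

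Levels of fibroblast markers also differed between the groups of 168FARN. The sum of the 12 fibroblast markers was 150.2 to 155.3 CPM in 168FARN alone, 1082 to 1164 CPM with WT fibroblasts and 275.8 to 283.6 CPM with sgPrrx1 fibroblasts. Of the 8 that could be tested and had counts in every group, 7 were higher in WT coculture than alone (33.4% of all genes), 7 were higher and 1 lower in sgPrrx1 coculture than alone (25.7% and 24.1%), and all 8 were lower in sgPrrx1 than in WT coculture (33.1%). Postn and Thy1, at 0 in a whole group, are not in these counts. Col1a2, at 4 to 8 counts per library alone, is in them but passed the low-count filter through the cocultures. Its calls against cells alone are therefore only descriptive. Postn, which encodes the matrix protein periostin, had 0 counts in every library alone, 21.3 to 23.1 CPM with WT fibroblasts and at most 0.0669 CPM with sgPrrx1 fibroblasts. Dcn, which encodes decorin, was at 0.275 CPM alone, 92.8 CPM with WT fibroblasts and 43.3 CPM with sgPrrx1 fibroblasts. Krt19, an epithelial keratin, was likewise at 0 counts in each library alone and with sgPrrx1 fibroblasts, and at 2.90 to 3.18 CPM with WT fibroblasts. Of the other epithelial and mammary markers, Gata3 was at 6.84 CPM alone, 10.7 CPM with WT and 6.96 CPM with sgPrrx1 fibroblasts. Krt8 was at 330.5, 371.5 and 419.1 CPM in the same order, and Krt14 and Krt18 had at most 8 counts in any 168FARN library. The 5 endothelial markers summed to 3.47 to 3.91 CPM alone, 7.96 to 8.88 CPM with WT fibroblasts and 7.18 to 8.07 CPM with sgPrrx1 fibroblasts. This rise lay in Cdh5, at 0.277, 5.94 and 3.90 CPM in the same order, whereas Vwf was at 3.10, 2.07 and 3.48 CPM. Pecam1, Tek and Kdr averaged at most 0.344 CPM in any of these groups. The 5 immune markers summed to 47.3 to 51.3, 27.6 to 30.6 and 33.8 to 34.5 CPM, with Ptprc and Cd3e at 0. Of the defining fibroblast markers, Fap was at 0 in both cocultures, and Thy1 was at 0 alone and in sgPrrx1 coculture and at most 0.548 CPM with WT fibroblasts. The part of these markers in the levels of Egfr, Nrg1, Erbb2 and the other members was not tested, and in sorted bulk RNA fewer cells of a type and less RNA per cell cannot be told apart.

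**Figure D3:**
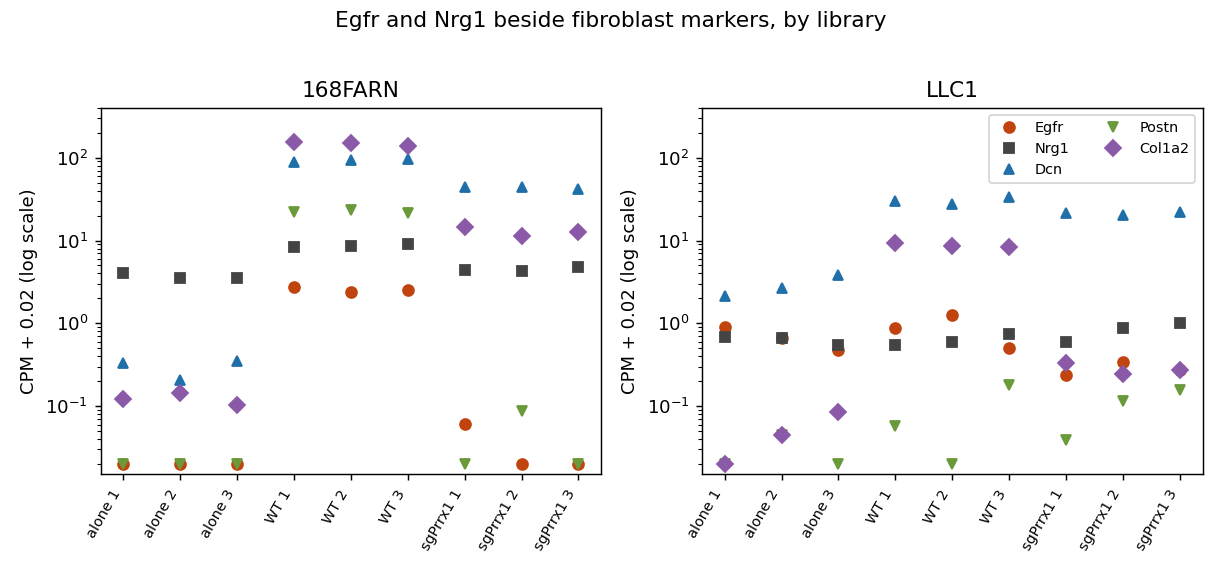
CPM plus 0.02 on a log axis for Egfr, Nrg1 and the fibroblast markers Dcn, Postn and Col1a2 in each library of 168FARN (left) and LLC1 (right). In 168FARN, Egfr and Postn sit at the bottom of the axis alone and at 2.35 to 2.76 and 21.3 to 23.1 CPM with WT fibroblasts, and in LLC1 Postn stays at or below 0.162 CPM.

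In LLC1, WT wound healing fibroblasts raised 2 of 9 members that could be tested, Areg and Hbegf, where 4.25% of 12873 genes were higher and 4.58% lower. Leaving out any 1 of the 6 libraries of these groups left 0 members called. No member was called in sgPrrx1 coculture against cells alone, where 2.01% of genes were higher and 2.31% lower, or in sgPrrx1 against WT coculture, where 0% were higher and 0.0544% lower. At an unadjusted p under 0.05, 2 and 3 members passed in these 2 comparisons in edgeR, as did 23.7% and 12% of all genes. DESeq2 called 2 members in each (15.1% and 3.89% of all genes), and limma voom called 8 and 5 (48% and 36.4%). Without sgPrrx1 replicate 3 the spread was smaller, and the calls became 4 higher (Areg, Ereg, Hbegf, Btc) and 2 lower (Erbb2, Erbb3) for WT against alone, with 22% of genes higher and 22.2% lower. The other comparisons then gave 3 higher (Areg, Ereg, Btc) for sgPrrx1 against alone, with 12.5% higher and 14.2% lower, and 3 lower (Areg, Hbegf, Btc) for sgPrrx1 against WT, with 2.94% higher and 2.75% lower.

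Areg was at 99.5, 99.6 and 102.4 CPM in LLC1 alone, 148.8, 145.5 and 171.7 CPM with WT fibroblasts and 124.6, 124.0 and 167.4 CPM with sgPrrx1 fibroblasts. Both cocultures lay above cells alone in every library. The log2 fold change with WT fibroblasts was 0.63 (SE 0.134, adjusted p = 0.0258 in edgeR, and from 0.0588 to 0.109 without any 1 of the 6 libraries compared), and with sgPrrx1 fibroblasts it was 0.46 (SE 0.134, adjusted p = 0.0913). Without sgPrrx1 replicate 3, whose Areg level was the highest of its group, the latter was 0.31 (SE 0.0723, adjusted p = 0.0142), and the change from WT to sgPrrx1 was -0.33 (SE 0.0733, adjusted p = 0.0445).

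Hbegf was at 68.1, 69.3 and 66.3 CPM in LLC1 alone, 89.6, 83.9 and 95.5 CPM with WT fibroblasts and 75.2, 74.7 and 62.8 CPM with sgPrrx1 fibroblasts, the last value being that of replicate 3. WT coculture lay above both other groups. Its log2 fold change against cells alone was 0.40 (SE 0.101, adjusted p = 0.0460 in edgeR, and 0.0708 with the replicate number as a block), which held in 6 of 17 alternatives with adjusted p values from 3.07e-05 to 0.174. Without sgPrrx1 replicate 3, the change from WT to sgPrrx1 was -0.26 (SE 0.0563, adjusted p = 0.0415).

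Ereg and Btc were highest in WT coculture. Ereg was at 74.1, 77.0 and 65.7 CPM alone, 104.3, 104.6 and 105.2 CPM with WT fibroblasts and 96.4, 90.4 and 42.5 CPM with sgPrrx1 fibroblasts, and Btc was at 8.35, 8.88 and 8.09 CPM alone, 13.5, 13.1 and 13.6 CPM with WT fibroblasts and 10.4, 10.5 and 5.21 CPM with sgPrrx1 fibroblasts. Replicate 3 was below all libraries of cells alone for both. With it, WT against alone had a log2 difference of 0.53 for Ereg (adjusted p = 0.264 in edgeR) and 0.67 for Btc (adjusted p = 0.121), and without it 0.55 (SE 0.0570, adjusted p = 0.000210) and 0.68 (SE 0.0564, adjusted p = 8.16e-05). Tgfa, absent in 168FARN, was at 5.69 to 6.09 CPM in LLC1 alone, 6.26 to 7.32 CPM with WT fibroblasts and 4.26 to 7.10 CPM with sgPrrx1 fibroblasts, with no call in edgeR. Nrg1 was at 0.526 to 0.993 CPM over all 9 LLC1 libraries, with overlapping groups.

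Erbb2 and Erbb3 were lower in LLC1 with WT fibroblasts than alone in every library, but no receptor was called with all libraries. Erbb2 was at 26.1, 26.0 and 25.3 CPM alone, 20.3, 21.9 and 17.95 CPM with WT fibroblasts and 21.8, 22.9 and 23.6 CPM with sgPrrx1 fibroblasts, and both cocultures lay below cells alone. Its log2 difference for WT against alone was -0.37 (adjusted p = 0.0557 in edgeR), and without sgPrrx1 replicate 3 it was -0.35 (SE 0.0753, adjusted p = 0.00572). Erbb3 was at 7.54, 6.80 and 4.63 CPM alone, 3.30, 4.09 and 3.22 CPM with WT fibroblasts and 4.65, 4.22 and 0.976 CPM with sgPrrx1 fibroblasts, with log2 differences for WT against alone of -0.84 (adjusted p = 0.330) and, without replicate 3, of -0.82 (SE 0.179, adjusted p = 0.00615). Egfr had 70, 52 and 36 counts alone, 70, 94 and 36 in WT coculture and 23, 27 and 15 in sgPrrx1 coculture. The sgPrrx1 libraries were the lowest 3 of the 9, but the log2 difference of -1.71 from WT coculture did not pass the threshold (unadjusted 95% interval -2.51 to -0.92, adjusted p = 0.223, and from 0.00433 to 0.638 over the alternatives). Of the markers in LLC1, Col1a2 was at 0.0296 CPM alone, 8.68 CPM with WT fibroblasts and 0.264 CPM with sgPrrx1 fibroblasts, and Dcn was at 2.85, 30.1 and 21.4 CPM in the same order. Krt18 had 22 to 35 counts with WT fibroblasts and at most 4 elsewhere, and Fap and Thy1 were at 0 in sgPrrx1 coculture. Gata3, the most abundant epithelial and mammary marker in LLC1, was at 3.34 CPM alone, 1.79 CPM with WT and 1.97 CPM with sgPrrx1 fibroblasts. Its difference of WT from alone had an adjusted p of 0.0732 in edgeR, and of 0.00761 without sgPrrx1 replicate 3. Among endothelial markers Kdr had 0 to 3 counts per library alone, 408 to 496 with WT fibroblasts (5.49 to 6.46 CPM) and 0 to 24 with sgPrrx1 fibroblasts. Vwf went the other way, with 12 to 39 counts alone, 4 with WT fibroblasts and 12 to 17 with sgPrrx1 fibroblasts. Pecam1, Cdh5 and Tek had at most 20 counts in any LLC1 library. The immune markers summed to 16.0 to 17.3 CPM alone, 36.4 to 38.3 CPM with WT fibroblasts and 36.4 to 64.8 CPM with sgPrrx1 fibroblasts, nearly all of it Cd68, with Cd3e at 0. The summed level of the 12 markers, mostly Col3a1, was 1638 to 1720 CPM alone, 1189 to 1214 CPM with WT fibroblasts and 1481 to 1568 CPM with sgPrrx1 fibroblasts. Of the 9 tested, 5 were higher and 2 lower with WT fibroblasts than alone (5 and 3 without sgPrrx1 replicate 3), where 4.25% and 4.58% of all genes (22% and 22.2% without it) were called. Col1a2, Fbln2 and Mmp2, at 0 to 5, 0 to 6 and 0 to 12 counts per library alone, passed the low-count filter through the cocultures. Any call of them against cells alone is therefore only descriptive. The part of all these markers in the levels of the members was not tested.

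**Figure D4:**
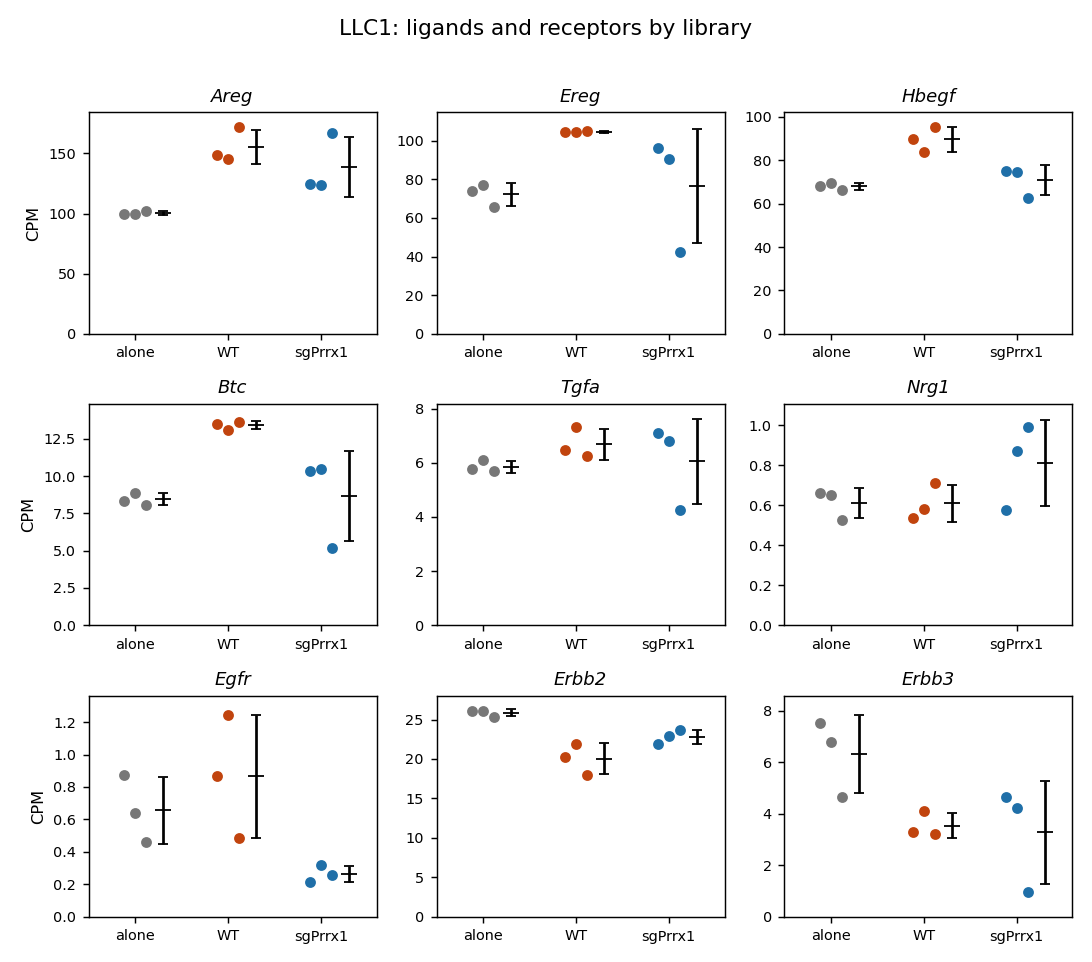
Each panel shows CPM (axis from 0) of 1 gene in the 9 libraries of LLC1, as points in order of replicate, with the mean and SD beside them (n = 3). The third sgPrrx1 point lies low for Ereg (42.5 CPM), Btc (5.21 CPM) and Erbb3 (0.976 CPM) and high for Areg (167.4 CPM).

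The lines differed before any coculture. Among 14369 genes tested in all 18 libraries, 37.7% were higher and 33.2% lower in 168FARN alone than in LLC1 alone, and of the 7 members that passed the filter and had counts in both lines alone 3 were higher (Hbegf, Nrg1, Erbb2) and 3 lower (Areg, Btc, Erbb3), counts that were the same without LLC1 sgPrrx1 replicate 3, where 42.9% of genes were higher and 38.8% lower. Tgfa and Egfr, at 0 counts in 168FARN alone and at 443 to 496 and 36 to 70 counts per library in LLC1 alone, passed the filter through other groups and are not counted. Areg was lower in 168FARN by -1.76 on the log2 scale (SE 0.0938, adjusted p = 2.09e-10 in edgeR) and Btc by -3.94 (SE 0.252, adjusted p = 1.79e-09), while Nrg1 was higher by 2.47 (SE 0.174, adjusted p = 5.34e-09). The higher Hbegf (log2 0.21, adjusted p = 0.0207) was not called without replicate 3 of 168FARN alone (adjusted p = 0.0627) or of LLC1 alone (adjusted p = 0.0565). Ereg differed by 0.08 (95% interval -0.32 to 0.48, adjusted p = 0.738).

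The change of several members with fibroblasts differed between the lines, by a test of the difference itself. For WT against alone it passed for 5 of the 7 members with counts in every group (Areg, Hbegf, Btc, Nrg1, Erbb2), where 29.4% of genes passed in either direction, and in all 5 the change was more positive in 168FARN. Areg, Hbegf and Btc had the larger fold change there, whereas Nrg1 was flat in LLC1 (0.613 and 0.610 CPM on average) and Erbb2, which rose in 168FARN, had a negative value in LLC1 that did not pass. The log2 difference was 0.66 for Areg (SE 0.129, adjusted p = 0.00123 in edgeR), 0.73 for Hbegf (SE 0.105, adjusted p = 9.00e-05) and 0.54 for Erbb2 (SE 0.0990, adjusted p = 0.000704). All 3 held in each of 25 alternatives, which do not include the limit of an absolute log2 fold change of at least 1. None of the 3 reached that limit. For sgPrrx1 against alone it passed for Areg, Hbegf and Btc, where 12.1% of genes passed. For sgPrrx1 against WT, where 19.3% passed, Ereg was higher and Nrg1 and Erbb2 were lower in 168FARN relative to LLC1. The Ereg call was lost without any 1 of the 9 libraries of WT coculture or of 168FARN sgPrrx1 coculture (adjusted p from 0.0591 to 0.066). Without LLC1 sgPrrx1 replicate 3, all 7 members passed for WT against alone, where 52.5% of genes passed, with Ereg (log2 -0.24, adjusted p = 0.00395) and Erbb3 (log2 1.20, adjusted p = 0.00507) added. For sgPrrx1 against alone 4 then passed, with Ereg added, where 28% of genes passed. For sgPrrx1 against WT all 7 passed, 4 higher and 3 lower in 168FARN, where 44.5% of genes passed. Tgfa could not be compared, having no count in 168FARN. The 2 lines shared no library, but line, kind of fibroblast and count table were tied to each other.

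**Figure D5:**
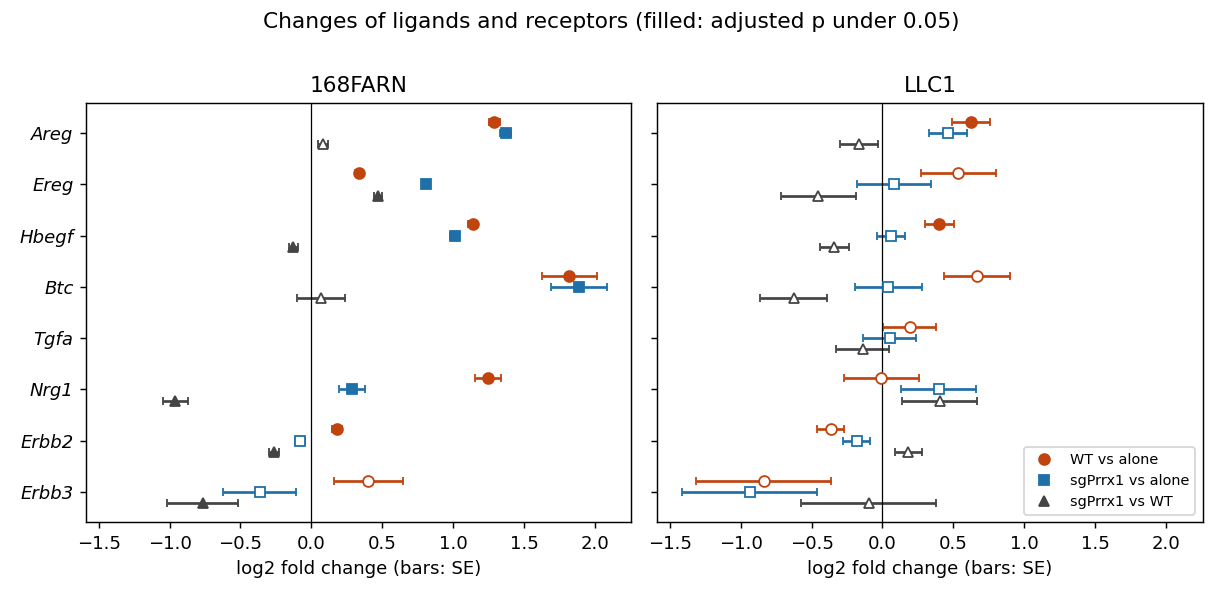
Log2 fold changes with their SE (n = 3 libraries per group, edgeR) for 8 members in 168FARN (left) and LLC1 (right), for WT against alone, sgPrrx1 against alone and sgPrrx1 against WT, with filled symbols for an adjusted p under 0.05. Areg, Hbegf and Btc lie to the right of 0 in both 168FARN cocultures, at 1.01 or more, and the SE bars are wider in LLC1. Tgfa, not tested in 168FARN, is drawn for LLC1 only. Egfr, at 0 counts in 168FARN alone, is not drawn.

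Of the 5 other genes of the family, Erbb4 and Nrg3 had 0 counts in all 18 libraries, Nrg4 had at most 16 counts in any library, and Egf was at or below 1.22 CPM. Nrg2, a neuregulin, rose in 168FARN with WT fibroblasts (5.48 ± 0.345 to 7.001 ± 0.405 CPM, log2 0.35, adjusted p = 0.00375 in edgeR) and was lower again with sgPrrx1 fibroblasts (log2 -0.34, adjusted p = 0.00486). Its level in LLC1 was 3.60 ± 0.176 CPM without fibroblasts, against 2.69 ± 0.342 CPM when WT fibroblasts were present and 3.36 ± 0.226 CPM when sgPrrx1 fibroblasts were. The LLC1 difference of WT from alone was not called with all libraries (log2 -0.42, adjusted p = 0.0961 in edgeR) and was called without sgPrrx1 replicate 3 (log2 -0.41, adjusted p = 0.0238). The lines differed in the response of Nrg2 to WT fibroblasts by 0.77 on the log2 scale (adjusted p = 0.00116) and in sgPrrx1 against WT by -0.64 (adjusted p = 0.00688). Egf fell in 168FARN with WT (log2 -0.99, adjusted p = 0.0400) and with sgPrrx1 fibroblasts (log2 -1.16, adjusted p = 0.0303), at 7 to 25 counts per library.

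Of 9 genes of ligand shedding (ADAM proteases and rhomboid family members) with counts in every group, 4 rose and 4 fell in 168FARN with WT fibroblasts, where 33.4% of all genes were higher and 30.7% lower. From WT to sgPrrx1 coculture 8 fell and none rose, where 26.9% of genes were higher and 33.1% lower, with a median log2 change of -0.31 against -0.03 over all genes. The other gene of the list, Adam12, had 0 counts in 168FARN alone, 41 to 70 per library with WT fibroblasts and 0 to 4 with sgPrrx1 fibroblasts. Adam17, which encodes the main sheddase of Areg and Hbegf, fell from 345 ± 3.76 CPM alone to 263.9 ± 0.639 CPM in WT coculture (log2 -0.39, adjusted p = 1.55e-07 in edgeR) and 243 ± 5.27 CPM in sgPrrx1 coculture (log2 -0.50, adjusted p = 3.62e-08). Adam19 rose from 0.457 ± 0.159 to 6.80 ± 0.312 CPM with WT fibroblasts (log2 3.91, adjusted p = 5.15e-08) and was at 1.48 ± 0.320 CPM with sgPrrx1 fibroblasts. Rhbdf2, a partner that carries ADAM17 to the cell surface, rose from 0.831 ± 0.228 to 3.65 ± 0.520 CPM in 168FARN (log2 2.11, adjusted p = 5.49e-06), against 81.7 ± 1.85 CPM in LLC1 alone. Of the 8 tested in LLC1, Adam8 was the 1 gene called, with WT fibroblasts (log2 1.66, adjusted p = 0.00137), where 4.25% of genes were higher and 4.58% lower, and with sgPrrx1 fibroblasts (log2 1.11, adjusted p = 0.0105), where 2.01% were higher and 2.31% lower. Without sgPrrx1 replicate 3, of the same 8, 1 was higher and 4 lower with WT fibroblasts and 1 higher and 1 lower with sgPrrx1 fibroblasts, where 22% and 22.2% and then 12.5% and 14.2% of all genes were higher and lower.

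Of 20 adaptor and relay genes, 9 rose and 4 fell in 168FARN with WT fibroblasts, where 33.4% of all genes were higher and 30.7% lower, with a median log2 change of 0.04 against 0.01 over all genes. In LLC1 none was called with WT fibroblasts, where 4.25% of genes were higher and 4.58% lower, and 1, Hras, rose with sgPrrx1 fibroblasts (log2 0.95, adjusted p = 0.0424 in edgeR), where 2.01% were higher and 2.31% lower, and without sgPrrx1 replicate 3 the counts were 5 higher and 2 lower with WT fibroblasts (22% and 22.2% of all genes) and 5 higher and 1 lower with sgPrrx1 fibroblasts (12.5% and 14.2%). The largest change in 168FARN among those with at least 100 counts was in Pik3r1, the PI3K regulatory subunit, from 54.1 ± 0.381 to 27.0 ± 1.83 CPM (log2 -1.01, adjusted p = 3.17e-08 in edgeR).

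Of 16 feedback inhibitors, 12 rose and 3 fell in 168FARN with WT fibroblasts (median log2 0.38, all genes 0.01), where 33.4% of all genes were higher and 30.7% lower. With sgPrrx1 fibroblasts 9 rose and 2 fell (median 0.15), where 25.7% of genes were higher and 24.1% lower. Dusp5, an ERK phosphatase, rose from 11.8 ± 0.536 to 36.5 ± 3.01 and 37.1 ± 1.55 CPM (log2 1.63 and 1.65, adjusted p = 3.38e-09 and 4.76e-09 in edgeR), and Errfi1, which inhibits EGFR directly, rose from 71.6 ± 0.478 to 158.4 ± 7.65 and 118.2 ± 3.74 CPM. In LLC1, 3 fell, none rose and 13 were not called with WT fibroblasts, where 4.25% of genes were higher and 4.58% lower. Among those that fell was Spry1, from 12.2 ± 0.818 to 3.87 ± 0.706 CPM (log2 -1.65, adjusted p = 0.00129). With sgPrrx1 fibroblasts 2 fell in LLC1 and none rose (1 fell with the replicate number as a block), where 2.01% of genes were higher and 2.31% lower. Without LLC1 sgPrrx1 replicate 3 the counts were 8 lower and 1 higher with WT fibroblasts, where 22.2% of genes were lower and 22% higher, and 7 lower and none higher with sgPrrx1 fibroblasts, where 14.2% were lower and 12.5% higher.

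Of 16 ERK-responsive transcription genes, 14 rose and 1 fell in 168FARN with WT fibroblasts (median log2 0.48) and 13 rose and 1 fell with sgPrrx1 fibroblasts (median 0.38), against the same shares of all genes (33.4% and 30.7%, then 25.7% and 24.1%). Egr1 rose from 10.9 ± 0.533 CPM alone to 68.8 ± 4.05 CPM in WT and 21.2 ± 0.220 CPM with sgPrrx1 fibroblasts, with log2 changes of 2.66 (adjusted p = 1.42e-11 in edgeR) and 0.96 (adjusted p = 7.21e-08). In LLC1, 4 of the 16 fell and none rose with WT fibroblasts (median log2 -0.33, with 4.25% of all genes higher, 4.58% lower), and 4 fell and none rose with sgPrrx1 fibroblasts (2.01% and 2.31%). Fos fell from 191.8 ± 2.58 to 55.1 ± 1.85 CPM with WT fibroblasts (log2 -1.80, adjusted p = 0.000220), and without sgPrrx1 replicate 3 the counts were 9 lower and 1 higher in WT coculture (22.2% and 22% of all genes) and 8 lower and 1 higher in sgPrrx1 coculture (14.2% and 12.5%). The difference between the lines for WT against alone passed for 11 of the 16, each more positive in 168FARN, and for 8 of the 16 feedback inhibitors, where 29.4% of genes passed. ERK activity itself was not measured.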

How the data were processed

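Paired reads of 100 bp were cleaned by the authors with Trimmomatic, mapped with STAR to mm10 and summed per gene by HTSeq, and 1 table of raw counts per line was deposited. The study's methods name ComBat-seq batch correction after a step on human CAFs. Whether it was applied to these tables, and the strand setting, are not given in the sources used here. From the deposited counts, genes were kept by filterByExpr (13540 in 168FARN, 12873 in LLC1, 14369 in a joint table), TMM factors were computed, and a mean per group was fitted to the 9 libraries of a line, or to all 18 for differences between lines, in edgeR 4.0.16 (R 4.3.3), with quasi-likelihood tests and Benjamini-Hochberg adjustment over all genes tested. CPM values come from these scaled totals, and CPM per kb uses the longest protein-coding transcript in GENCODE M1, from which only lengths were taken. Positions and promoter windows are from RefSeq (GRCm38.p6, counted from 1).

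Samples were grouped by their labels. Deviations of same-numbered libraries from their group means correlated at 0.131 to 0.419 between LLC1 alone and sgPrrx1 coculture, so the fit with the replicate number as a block is given there where it changed a call. Total counts per library were 48315037 to 68933002 in 168FARN and 66129117 to 103997557 in LLC1, and all replicate pairs differed beyond sampling noise (chi-square per degree of freedom of 10.4 or more). The members and lists were chosen with earlier results of these data known. The text names all 10 members and, of each pathway list, up to 3 genes per comparison with the largest change among those called with a mean of at least 100 counts. Genes at 0 counts in a whole group of a line are described and not counted among calls of the members or lists. Marker genes, Egf, Adam12 and Adam17 in WT coculture were named after their values were seen. Pattern likeness is Pearson's r over the 9 libraries of a line. Alternatives were DESeq2 1.42.0, limma 3.58.1 voom with sample quality weights, RLE scaling, unscaled totals, looser and stricter filters, the replicate number as a block, each library left out, an absolute log2 fold change of at least 1, and fits of only the 2 groups compared. The fold change limit was applied to counts of members and is not among the 17 or 25 alternatives given for single members. The test code was tested on simulated data.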

Additional observations from a re-analysis of the deposited data

Results flagged for a closer look

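Members whose change with fibroblasts differed between the lines, by an interaction test in edgeR, are listed here with the adjusted p of that difference. For WT against alone it was 0.00123 for Areg, 9.00e-05 for Hbegf, 0.0148 for Btc, 0.00107 for Nrg1 and 0.000704 for Erbb2, each with a more positive change in 168FARN. Erbb2 rose in 168FARN and had a negative value in LLC1 that did not pass, and Nrg1 was flat in LLC1. For sgPrrx1 against alone it was 0.000185 for Areg, 1.73e-05 for Hbegf and 0.00140 for Btc, again toward 168FARN, with log2 differences of 0.93, 0.96 and 1.85. For sgPrrx1 against WT it was 0.0333 for Ereg (log2 difference 0.94), 0.00107 for Nrg1 (-1.34) and 0.00686 for Erbb2 (-0.43). The Ereg difference held in 15 of 25 alternatives and was lost without any 1 of the 9 libraries of WT coculture or of 168FARN sgPrrx1 coculture, and without LLC1 sgPrrx1 replicate 3 it was 0.67 with an adjusted p of 1.33e-06. Egfr, with no count in 168FARN alone, passed the filter only through other groups and is not listed. Line, kind of fibroblast and count table cannot be told apart in these differences. Groups of 3 libraries were too small for a check of single outlying values gene by gene. LLC1 sgPrrx1 replicate 3 stood apart as a whole library.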

How the results depend on the processing

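Counts of members leave out Egfr and Tgfa where a whole group was at 0, and shares in brackets are of all genes tested. The number of members called changed by more than 1.5 times in the following cases. With an absolute log2 fold change of at least 1 it was 3 for 168FARN sgPrrx1 against alone (7.25%), 0 for 168FARN sgPrrx1 against WT (6.19%), 0 for LLC1 WT against alone (2.56%), and 2, 1 and 1 for the differences between the lines in WT against alone (10.3%), sgPrrx1 against alone (4.77%) and sgPrrx1 against WT (5.13%). For LLC1 WT against alone (2 in the report) it was 6 with voom (58.6%), 1 with unscaled totals (10.4%), 1 with no filter beyond 1 count (5.43%), 6 with only the 2 groups compared (40.7%), and 0 to 6 when 1 library was left out (2.09% to 44.2%). For LLC1 sgPrrx1 against alone (0) it was 2 with DESeq2 (15.1%), 8 with voom (48%) and 0 to 3 with 1 library left out (0.398% to 26.7%), and for sgPrrx1 against WT (0) it was 2 (3.89%), 5 (36.4%) and 0 to 3 (0.0229% to 5.69%). Among the values with 1 library left out, the highest are those without sgPrrx1 replicate 3, and the 0 for WT against alone came without any 1 of the 6 libraries compared. For the difference between the lines in sgPrrx1 against WT (3) it was 7 with voom (54.9%), 7 without LLC1 sgPrrx1 replicate 3 (44.5%) and 2 to 3 without any other library. The cause was not tested. Deviations of same-numbered libraries correlated between -0.0734 and 0.0627 in 168FARN and between -0.0414 and 0.419 in LLC1, and exceeded 0.1 in every pair only between LLC1 alone and sgPrrx1 coculture (0.131 to 0.419). Pairing by number was taken to hold for that comparison and no other. The fit that blocked on replicate number changed 1 count of members by over 1.5 times: LLC1 WT against alone gave 1 member (Areg, 7.99%), and the counts of members in the other comparisons stayed within 1.5 times.

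Of the members' own log2 differences, 24 values changed sign, none of them called either way. In LLC1, Nrg1 for WT against alone was 0.0118 with DESeq2, 0.013 with RLE scaling, 0.0161 with at least 10 counts in every library, 0.0045 with only the 2 groups compared, and -0.1345 to 0.0789 with 1 library left out. For sgPrrx1 against WT in LLC1, voom gave 0.0797 for Tgfa and 0.3768 for Erbb3, and leaving out 1 library gave -0.2694 to 0.0517 for Tgfa and -0.4301 to 0.3214 for Erbb3. For sgPrrx1 against alone in LLC1, leaving out 1 library gave -0.1204 to 0.3788 for Ereg, -0.0769 to 0.2567 for Tgfa and -0.113 to 0.31 for Btc, with the negative values without sgPrrx1 replicate 1 or 2. Btc in 168FARN sgPrrx1 against WT ran from -0.0089 (without WT replicate 3) to 0.1681, and the Nrg1 difference between the lines for sgPrrx1 against alone was 0.2198 with voom and -0.2886 to 0.053 with 1 library left out. Depth limits the members under about 1 CPM, such as Egfr in LLC1 at 15 to 94 counts.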
